A study of Mus musculus with 30 samples.

Results

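The genes described are 6 markers of fat cells: Adipoq, Cfd, Plin1, Fabp4, Scd1 and Car3. They were taken by symbol from a table of 11249 genes, and all 6 symbols were found there, with 1 row each. Messenger RNA was sequenced from skeletal muscle tissue of male mice, taken 3 days after surgery. The surgery was a sham operation or a transection of the spinal cord, at the high-thoracic level T3 or at the low-thoracic level T9. The gastrocnemius, a hindlimb muscle, gave 4 libraries in each of the 3 groups, and the triceps brachii, a forelimb muscle, gave 6 in each. The sources used here give no strain, age or genotype of the mice. These are bulk samples of muscle, so a lower level of a gene can mean fewer cells of a type or less RNA per cell, and these cannot be told apart. The study's title names muscle wasting and a hormonal response that depends on the level of the lesion as its question.

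Fat cells store triglyceride in a droplet coated by perilipins, carry fatty acids on small binding proteins, and release hormones and enzymes into the blood. A muscle holds a small number of such cells between its fibres and around its vessels. Several of the 6 genes are also known from other cells: Car3 encodes a carbonic anhydrase that is abundant in muscle fibres themselves, Fabp4 is made by capillary endothelium and macrophages, and Scd1, which puts a double bond into saturated fatty acids, is made in many lipid-handling cells. Adipoq (the hormone adiponectin), Cfd (the protease complement factor D, or adipsin) and Plin1 (the perilipin on the fat cell's droplet) are the members most closely tied to fat cells.

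Of the 6 genes, 3 passed at least 1 test against sham. Of all genes, 33.7% passed after T3 and 43.2% after T9 in gastrocnemius, and 23.3% and 0.00889% in triceps. The share of all genes that passed at least 1 was not computed. Against sham, Scd1 fell by 2.17 ± 0.43 (SE) on the log2 scale in gastrocnemius after T3 injury. In triceps Scd1 fell by 1.99 ± 0.32 after T3 injury. Fabp4 was lower after both injuries in gastrocnemius, and Car3 was lower after T3 injury in triceps. With the median log2 value of the library as a covariate, Fabp4 passed after neither injury. In gastrocnemius that median was 3.66 to 4.06 in sham, 4.05 to 4.26 after T3 and 4.27 to 4.33 after T9. It largely followed the groups there, so that fit cannot separate the median from the injury. Adipoq, Cfd and Plin1 passed the test against sham in neither muscle with all libraries weighted equally and no further scaling, although each passed under some other settings. Between muscles that carry the same mouse number, Plin1 and Car3 were higher in gastrocnemius in 12 of 12 mice and Fabp4 was lower in 12 of 12. The median difference of all genes was also above 0, at 0.27 in sham, 0.23 after T3 and 0.40 after T9. The share of all genes that went 1 way in 12 of 12 mice was not computed.

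Depth, in units of 1000000 reads, was 13.3 to 23.4 per library except in triceps T3 replicate 5, where it was 88.8. Levels are given as CPM, reads per 1000000 reads of the library. Differences are log2 changes from limma, a linear model fitted to all genes, with p-values adjusted over all genes by Benjamini and Hochberg and called below 0.05. Where counts at an unadjusted p below 0.05 are given, the share of all genes at that threshold was not computed. The median log2 value of a library ranged widely, and 4 libraries had the lowest medians: triceps T9 replicate 1, gastrocnemius sham replicate 4, and replicates 3 and 4 of triceps sham. In triceps sham replicate 4 the summed level of 9 macrophage markers was 1075 CPM, against a median of 37.1 CPM in its group. The median change of all genes was 0.27 after T3 and 0.40 after T9 in gastrocnemius and 0.23 and 0.17 in triceps, so a gene with no change in CPM lies below the middle of the distribution. Values from libraries centred on their median are therefore given beside the called changes. The T3 and T9 comparisons of a muscle share its sham libraries. The labels do not say that the libraries of a group came from separate mice, so p-values measure only the spread between these samples.

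The 6 genes lie on 5 chromosomes of the mouse build GRCm38 and are protein-coding in the GENCODE M21 annotation. Adipoq (ENSMUSG00000022878) is on chromosome 16 at 23146536 to 23158028, on the plus strand. Cfd (ENSMUSG00000061780) is on chromosome 10 at 79890853 to 79892655, on the plus strand. Plin1 (ENSMUSG00000030546) is on chromosome 7 at 79720218 to 79732903, on the minus strand. Fabp4 (ENSMUSG00000062515) and Car3 (ENSMUSG00000027559) are both on chromosome 3, at 10204088 to 10208576 on the minus strand and at 14863512 to 14872523 on the plus strand. Scd1 (ENSMUSG00000037071) is on chromosome 19 at 44394455 to 44407879, on the minus strand.

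The DNA before the start of Adipoq, Cfd and Plin1 is shown because the RefSeq table used here had entries for these 3 of the 6 members, which are also those most tied to fat cells. Over all 30 libraries Pearson r was 0.88 for Adipoq and Cfd, 0.80 for Cfd and Plin1 and 0.64 for Adipoq and Plin1, while Fabp4 had r of 0.37, 0.14 and -0.31 with the 3, so the marker label did not pick 6 genes of 1 pattern. The sequences come from RefSeq (GRCm38.p6) and are written 5′ to 3′ on the strand of the gene. They end at the base before the first annotated start, so the Plin1 sequence has 122 bases and the others have 250. The Adipoq sequence is chr16:23146286-23146535, the Cfd sequence chr10:79890603-79890852 and the Plin1 sequence, on the minus strand, chr7:79732905-79733026. Capitals mark a match to a searched motif.
Adipoq: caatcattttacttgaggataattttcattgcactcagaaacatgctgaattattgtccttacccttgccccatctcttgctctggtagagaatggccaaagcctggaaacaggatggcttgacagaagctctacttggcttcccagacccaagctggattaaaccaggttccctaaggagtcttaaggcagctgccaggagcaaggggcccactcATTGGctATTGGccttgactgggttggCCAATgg
Cfd: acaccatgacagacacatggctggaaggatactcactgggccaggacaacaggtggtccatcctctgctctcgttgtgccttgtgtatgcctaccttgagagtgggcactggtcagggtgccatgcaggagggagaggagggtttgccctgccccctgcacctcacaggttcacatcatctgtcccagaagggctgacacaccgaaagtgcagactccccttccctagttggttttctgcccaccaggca
Plin1: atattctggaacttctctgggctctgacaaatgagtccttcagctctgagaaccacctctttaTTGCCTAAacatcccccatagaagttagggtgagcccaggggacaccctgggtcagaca

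5 motifs were searched on both strands, and no matches of different motifs overlapped. The CCAAT box (CCAAT) matched 3 times in Adipoq, 1 time on the gene's strand and 2 times, as ATTGG, on the other, and 33.8% of the 32817 windows of 250 bases before RefSeq starts held it. The C/EBP core (TTGCNNAA) matched once in Plin1, as TTGCCTAA, and 9.57% of those windows held it. The PPAR and RXR repeat, the glucocorticoid receptor palindrome and the TATA box (TATAAA) matched in none of the 3 sequences, and they were in 0.338%, 0.0366% and 12.4% of the windows. The shorter Plin1 sequence offers fewer places for a match than those windows. The 3 sequences shared no motif of this search.

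Adipoq, the hormone adiponectin, was low in all groups. In gastrocnemius it was at 14.7, 9.07, 20.9 and 20.3 CPM in the sham replicates 1 to 4, at 11.8, 8.98, 18.6 and 7.03 CPM after T3 and at 15.9, 13.6, 12.6 and 15.6 CPM after T9. The groups overlapped, and the T9 libraries lay closest together. In triceps the lowest, median and highest levels were 3.47, 8.42 and 12.9 CPM in sham, 3.18, 5.27 and 12.1 CPM after T3, and 7.83, 11.4 and 16.4 CPM after T9. The triceps groups overlapped too, although 5 of the 6 T3 libraries lay below the lowest T9 library.

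Cfd, the complement protease made by fat cells, was several times higher in CPM. In gastrocnemius it was at 79.2, 65.4, 122 and 100.2 CPM in sham, at 80.7, 54.9, 83.7 and 61.2 CPM after T3 and at 82.9, 70.0, 71.3 and 76.5 CPM after T9. Sham replicate 3 was the highest of the 12. In triceps the lowest, median and highest levels were 21.9, 46.3 and 70.2 CPM in sham, 16.5, 29.7 and 42.2 CPM after T3, and 39.4, 57.7 and 86.5 CPM after T9. All triceps groups overlapped, with 4 of the 6 T3 libraries below the lowest T9 library.

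Plin1, the droplet coat protein, was the member with the fewest reads. In gastrocnemius it was at 6.24, 7.65, 20.8 and 4.62 CPM in sham, at 7.85, 4.98, 9.21 and 6.91 CPM after T3 and at 11.2, 9.11, 9.52 and 11.7 CPM after T9. Sham replicate 3 stood well above the other sham libraries. In triceps the lowest, median and highest levels were 0.489, 2.60 and 5.82 CPM in sham, 1.63, 2.22 and 3.06 CPM after T3, and 1.82, 5.69 and 6.06 CPM after T9. The lowest triceps sham value rests on 6 reads, and the groups overlapped.

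Fabp4, the carrier of fatty acids in fat cells and capillaries, differed most clearly in gastrocnemius. There it was at 289, 181, 270.2 and 391 CPM in sham, at 128, 121, 182 and 153 CPM after T3 and at 216, 167, 174 and 169 CPM after T9. 3 of the 4 T3 libraries, and 3 of the 4 T9 libraries, lay below the lowest sham library. In triceps the lowest, median and highest levels were 153, 310.2 and 488 CPM in sham, 146, 223 and 386 CPM after T3, and 186, 256 and 388 CPM after T9, and these groups overlapped widely.

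Scd1, the desaturase, had the largest differences of the 6. In gastrocnemius it was at 72.0, 81.5, 252 and 117 CPM in sham, at 16.1, 18.4, 60.3 and 23.6 CPM after T3 and at 43.2, 77.0, 36.9 and 48.1 CPM after T9. Every T3 library lay below every sham library, and 3 of the 4 T9 libraries lay below the lowest of them. In triceps the lowest, median and highest levels were 40.8, 68.2 and 122 CPM in sham, 11.1, 17.2 and 26.9 CPM after T3, and 27.5, 44.9 and 76.8 CPM after T9. Every triceps T3 library lay below every sham and every T9 library.

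Car3, the carbonic anhydrase shared by fat cells and muscle fibres, was the most abundant member. In gastrocnemius it was at 1872, 2158, 2313 and 1502 CPM in sham, at 1179, 1121, 2576 and 1880 CPM after T3 and at 3706, 2560.4, 2732 and 3043 CPM after T9. Every T9 library lay above every sham library, while T3 and sham overlapped. In triceps the lowest, median and highest levels were 1229, 1510 and 1867 CPM in sham, 415, 831 and 1098 CPM after T3, and 1027, 1542 and 2012 CPM after T9. Every triceps T3 library lay below every sham library.

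**Figure D1:**
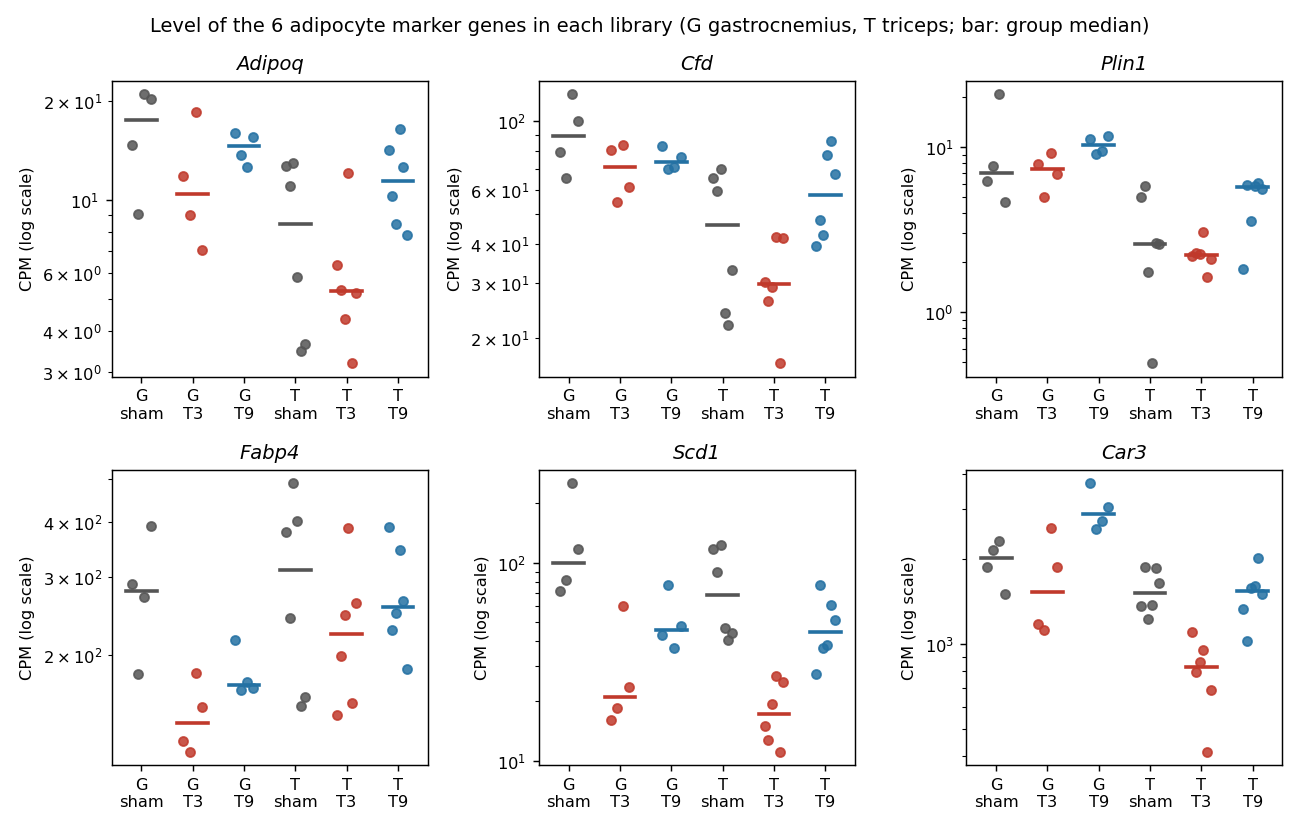
CPM on a log scale of each gene in each library, in 6 groups (G gastrocnemius, T triceps), with a bar at the group median. Scd1 after T3 lies below sham in both muscles with no overlap, and Car3 in gastrocnemius after T9 lies above sham with no overlap.

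Set per length of transcript, the members kept the same ends of the order in all 6 groups. RPKM, reads per kilobase and per 1000000 reads, was computed with the longest transcript that has a consensus coding sequence. Car3 was highest, with a mean of 1168 ± 212 RPKM (SD, n = 4) in gastrocnemius sham and 927 ± 162 (SD, n = 6) in triceps sham, and Plin1 was lowest, at 3.48 ± 2.64 and 1.07 ± 0.711. Fabp4 came next and was followed by Cfd in every group, at 315 ± 96.3 and 99.4 ± 26.8 RPKM in gastrocnemius sham. Scd1 and Adipoq shared the next places: Scd1 was above Adipoq in both sham groups and in triceps T9, below it in the other groups, and their ranges overlapped in all 6. Car3 and Fabp4 did not overlap except in triceps T3, Cfd and Scd1 overlapped in triceps sham, and Adipoq and Plin1 overlapped in gastrocnemius sham. The place of Fabp4 depends on the length used, as do those of Scd1 and Adipoq in gastrocnemius T9. That length was chosen after a first order had been computed with the union of all annotated exons, which for Fabp4 is 4489 bases, the whole span of the gene, against 896 bases of transcript. With the union, Cfd came before Fabp4 in 4 of the 6 groups, and the mean of Fabp4 in gastrocnemius sham was 63.0 RPKM.

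After T3 injury in gastrocnemius, 2 of the 6 members passed the test and both were lower, where 33.7% of the 11248 genes tested were called in either direction and 6.65% were lower. Only Scd1 had groups that did not overlap, as did 29.7% of the genes. Scd1 fell by 2.17 ± 0.43 (SE) on the log2 scale (limma, adjusted p = 0.0023), and by 2.45 with centred libraries. Fabp4 fell by 0.92 ± 0.21 (limma, adjusted p = 0.0051), and by 1.197 with centred libraries. Fabp4 did not pass with the library median as a covariate, where its change was -0.62 (limma, adjusted p = 0.13). The other members gave log2 changes of -0.51 for Adipoq, -0.37 for Cfd, -0.22 for Plin1 and -0.28 for Car3, with adjusted p from 0.15 to 0.65. With centred libraries Cfd passed as well, at -0.65 (limma, adjusted p = 0.035). With the library median as a covariate Car3 passed, at -0.90 (limma, adjusted p = 0.040), and Plin1 was at -1.15 (limma, adjusted p = 0.058). Plin1 passed with library weights, at -0.91 (limma, adjusted p = 0.023), and Adipoq without sham replicate 2, at -0.76 (limma, adjusted p = 0.037). Cfd also passed with quantile normalization, with library weights and without sham replicate 2. Without sham replicate 3, Plin1 was at 0.23. Over the 6 members the median change was -0.44, beside 0.27 over all genes.

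After T9 injury in gastrocnemius 2 members, Scd1 and Fabp4, passed and were lower, where 43.2% of the genes tested were called and 5.67% were lower. Scd1 fell by 1.22 ± 0.43 (limma, adjusted p = 0.035) and Fabp4 fell by 0.60 ± 0.21 (limma, adjusted p = 0.035). With centred libraries the changes were -1.62 and -0.996, and Cfd passed as well, at -0.65 (limma, adjusted p = 0.040). With the library median as a covariate Fabp4 was at -0.16 (limma, adjusted p = 0.80). Fabp4 did not pass with only these 2 groups in the fit (limma, adjusted p = 0.061). Both calls depended on single libraries: without gastrocnemius sham replicate 4, T9 replicate 3 or T9 replicate 4 neither passed, Fabp4 also missed the threshold without sham replicate 1 or T9 replicate 2, and Scd1 without sham replicate 3 or T9 replicate 1. Over all fits that left out 1 library the change of Fabp4 was -0.79 to -0.42 and that of Scd1 -1.44 to -0.84. Car3 was 0.62 ± 0.25 higher, in 4 of 4 libraries above the highest sham library, with an adjusted p of 0.056 in limma. It was the only member whose groups did not overlap, as in 39.6% of the genes. With centred libraries the Car3 difference was 0.22 (limma, adjusted p = 0.46), and with the library median as a covariate it was -0.27. Car3 did pass with these 2 groups only in the fit (limma, adjusted p = 0.034), without sham replicate 3, at 0.71 (limma, adjusted p = 0.043), and without T3 replicate 2 or T3 replicate 3 (limma, adjusted p = 0.047 and 0.031). Adipoq was at -0.10, Cfd at -0.25 and Plin1 at 0.33. Without sham replicate 3, the highest of its group, Plin1 was at 0.77 and passed (limma, adjusted p = 0.016), while centring, quantile normalization, library weights and the library median as a covariate put it below 0.

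Between T3 and T9 injury in gastrocnemius, where 1.63% of the genes were called, 0 of 6 members passed in limma, and 2 had an unadjusted p below 0.05: Car3 at -0.91 ± 0.25 (limma, adjusted p = 0.090) and Scd1 at -0.95 ± 0.43 (limma, adjusted p = 0.31). The 95% interval of the Car3 difference was -1.44 to -0.37. Car3 passed without sham replicate 4 (limma, adjusted p = 0.035), without T3 replicate 3 (limma, adjusted p = 0.028) and in a fit of these 2 groups only (limma, adjusted p = 0.030).

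In triceps after T3 injury, 2 of the 6 members passed and both were lower, where 23.3% of the 11249 genes were called and 4.32% were lower. Scd1 fell by 1.99 ± 0.32 (limma, adjusted p = 0.00037), and by 2.22 with centred libraries. Car3 fell by 0.998 ± 0.21 (limma, adjusted p = 0.0029), and by 1.23 with centred libraries. In both genes the groups did not overlap, as in 6.62% of the genes. The sample descriptions carry the number 57 for 2 triceps libraries of each group and 60 for the other 4, and what the number marks is not given. The tests within each number rest on fewer libraries. Within the libraries of 60, Scd1 was at -2.31 (limma, adjusted p = 0.0035) and Car3 at -0.64 (limma, adjusted p = 0.052). Within those of 57, Scd1 was at -1.35 (limma, adjusted p = 0.057) and Car3 at -1.71 (limma, adjusted p = 0.015), and the difference between the numbers was not tested. Adipoq, Cfd, Plin1 and Fabp4 gave -0.36, -0.47, -0.09 and -0.33, with adjusted p from 0.28 to 0.91. Without the 4 libraries with the lowest median, Plin1 was at -0.82 and passed (limma, adjusted p = 0.024), and without sham replicate 2 it was at 0.19.

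After T9 injury in triceps 0 of 6 members passed in limma, and 1 had an unadjusted p below 0.05, where 0.00889% of the genes, 1 gene in all, were called. That member was Adipoq, at 0.65 ± 0.30 (limma, adjusted p = 0.46), with a 95% interval of 0.03 to 1.27. It passed when libraries were weighted by their quality, at 0.89 (limma, adjusted p = 0.030). Scd1 was at -0.58 ± 0.32, with an interval of -1.26 to 0.09, and Car3 at -0.05 ± 0.21, with an interval of -0.50 to 0.39. Plin1 was at 0.92 ± 0.46 and Cfd at 0.49 ± 0.32.

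Between the injuries, triceps gave 3 called members, all lower after T3, where 7.60% of the genes were called and 2.65% were lower. Scd1 fell by 1.40 ± 0.32 (limma, adjusted p = 0.011), with no overlap of the groups, as in 4.97% of the genes. Car3 fell by 0.94 ± 0.21 (limma, adjusted p = 0.0097) and Adipoq fell by 1.02 ± 0.30 (limma, adjusted p = 0.042). With centred libraries they were at -1.47, -1.01 and -1.08, and Adipoq then had an adjusted p of 0.059 in limma. Adipoq also missed the threshold without any 1 of T3 replicates 1, 2, 3 or 5 or T9 replicates 1, 4, 5 or 6. It missed it too with quantile normalization (limma, adjusted p = 0.070). When the fit held no term for the number 57 or 60, Adipoq was not called either (limma, adjusted p = 0.13). Cfd was at -0.96 ± 0.32 (limma, adjusted p = 0.074) and Plin1 had a 95% interval of -1.98 to -0.03 (limma, adjusted p = 0.22). Cfd and Plin1 both passed with library weights, without the 4 libraries with the lowest median and with these 2 groups only in the fit. Within the libraries of 60 none of the 3 called members passed, with Scd1 at -1.23, Car3 at -0.57 and Adipoq at -0.88. Within those of 57, Scd1 at -1.75 (limma, adjusted p = 0.039), Car3 at -1.70 (limma, adjusted p = 0.023) and Plin1 at -1.65 (limma, adjusted p = 0.024) passed, and Adipoq was at -1.29 (limma, adjusted p = 0.076).

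**Figure D2:**
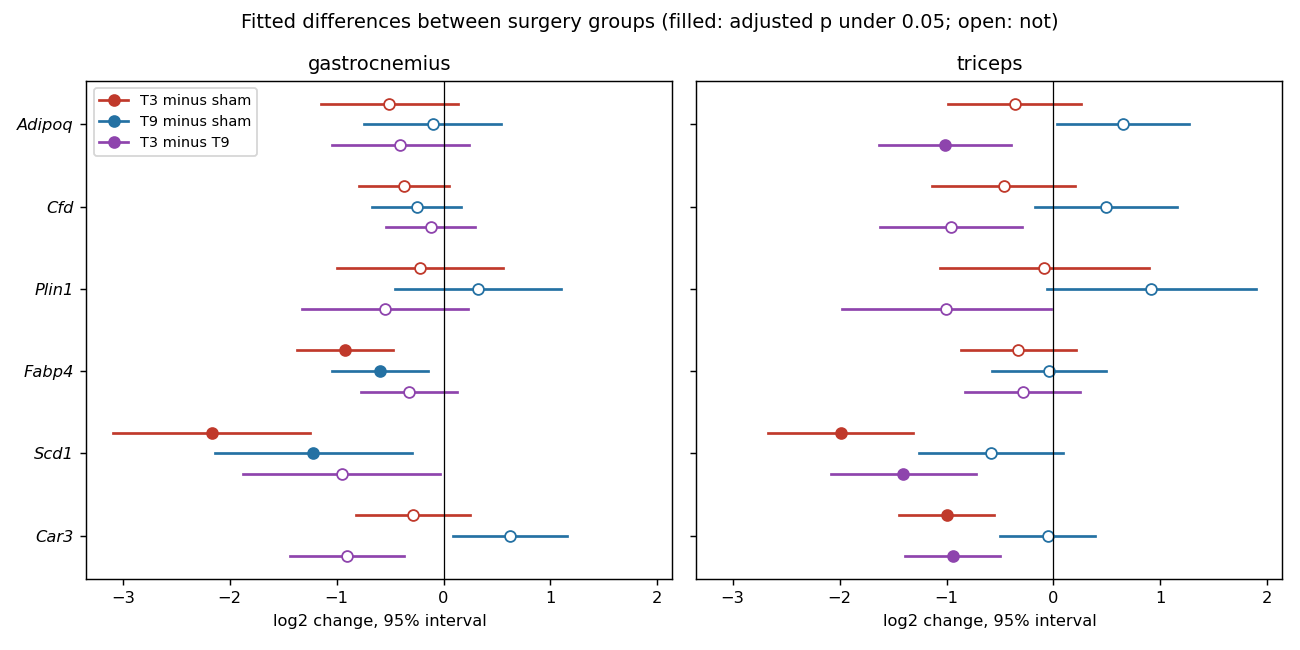
Log2 change with its 95% interval for each gene in each comparison of surgery groups, filled where the adjusted p was below 0.05. Scd1 lies furthest to the left after T3 in both muscles, and the intervals of Plin1 in triceps are the widest.

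Whether the effect of an injury differed between the muscles was tested directly in the 12 mice with both. For T3, where 1.24% of genes were called, 0 of 6 members passed in limma and 0 had an unadjusted p below 0.05. For T9, where 6.95% were called, 0 of 6 passed and 1 had an unadjusted p below 0.05. This was Car3, whose T9 effect was 0.70 ± 0.29 larger in gastrocnemius (limma, adjusted p = 0.18), with a 95% interval of 0.07 to 1.33. The interval for Scd1 was -0.71 to 0.99 after T3 and -0.99 to 0.71 after T9.

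Several members passed between the muscles themselves, though in sham and after T9 their share was near that of all genes. In sham mice 3 of 6 passed, where 38.9% of the genes were called: Cfd was 0.82 ± 0.26 higher in gastrocnemius (limma, adjusted p = 0.028), Plin1 was 1.89 ± 0.49 higher (limma, adjusted p = 0.019) and Fabp4 was 0.43 ± 0.16 lower (limma, adjusted p = 0.0496). After T3, 5 of 6 passed against 30.4% of genes, with Cfd 1.13, Plin1 1.55, Car3 0.79 and Adipoq 0.74 higher and Fabp4 at -0.67. After T9, 3 of 6 passed against 53.0% of genes, with Car3 1.13 and Plin1 1.42 higher and Fabp4 at -0.71. Scd1 passed in none of the 3, with differences of 0.38, 0.52 and 0.24 and an adjusted p of 0.15 to 0.47 in limma. With centred libraries Cfd in sham was at 0.54 (limma, adjusted p = 0.13), Adipoq after T3 at 0.50 (limma, adjusted p = 0.16) and Plin1 after T9 was not called (limma, adjusted p = 0.077), beside a median difference of all genes of 0.27, 0.23 and 0.40.

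Plin1 was at 20.8 CPM in gastrocnemius and 1.74 CPM in triceps of the sham mouse with the widest gap, and at 6.24 and 4.97 CPM in the one with the narrowest. Fabp4 was lower in gastrocnemius by 0.04 to 0.85 on the log2 scale in sham mice, by 0.19 to 1.08 after T3 and by 0.44 to 1.03 after T9. Cfd was higher in gastrocnemius in 11 of 12 mice, Adipoq in 10 and Scd1 in 9. How many of all genes were higher in as many mice was not computed. The sham calls were lost in a fit of all 30 libraries without the mouse block, where 0 of 6 passed. Block and libraries changed together there, so the loss cannot be credited to the block alone. Leaving out the sham mouse of replicate 3 also left 0 called. Cfd was at 0.40 without the sham mouse of replicate 4 (limma, adjusted p = 0.10). Fabp4 in sham, close to the threshold, also missed it with quantile normalization (limma, adjusted p = 0.083), with no variance trend (limma, adjusted p = 0.064), with the mouse as a random effect (limma, adjusted p = 0.11), and without the sham mouse of replicate 1 or 2, the T3 mouse of triceps replicate 2 or 3, or any 1 of the T9 mice. Adipoq in sham passed without the sham mouse of replicate 2, at 0.90 (limma, adjusted p = 0.033). After T3, leaving out the mouse of triceps replicate 3 or 4 left 1 member called, and leaving out any 1 of the 4 T3 mice ended the calls of Adipoq and Plin1 after T3. That both muscles carry the same mouse number is read from the sample descriptions and not stated there.

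**Figure D3:**
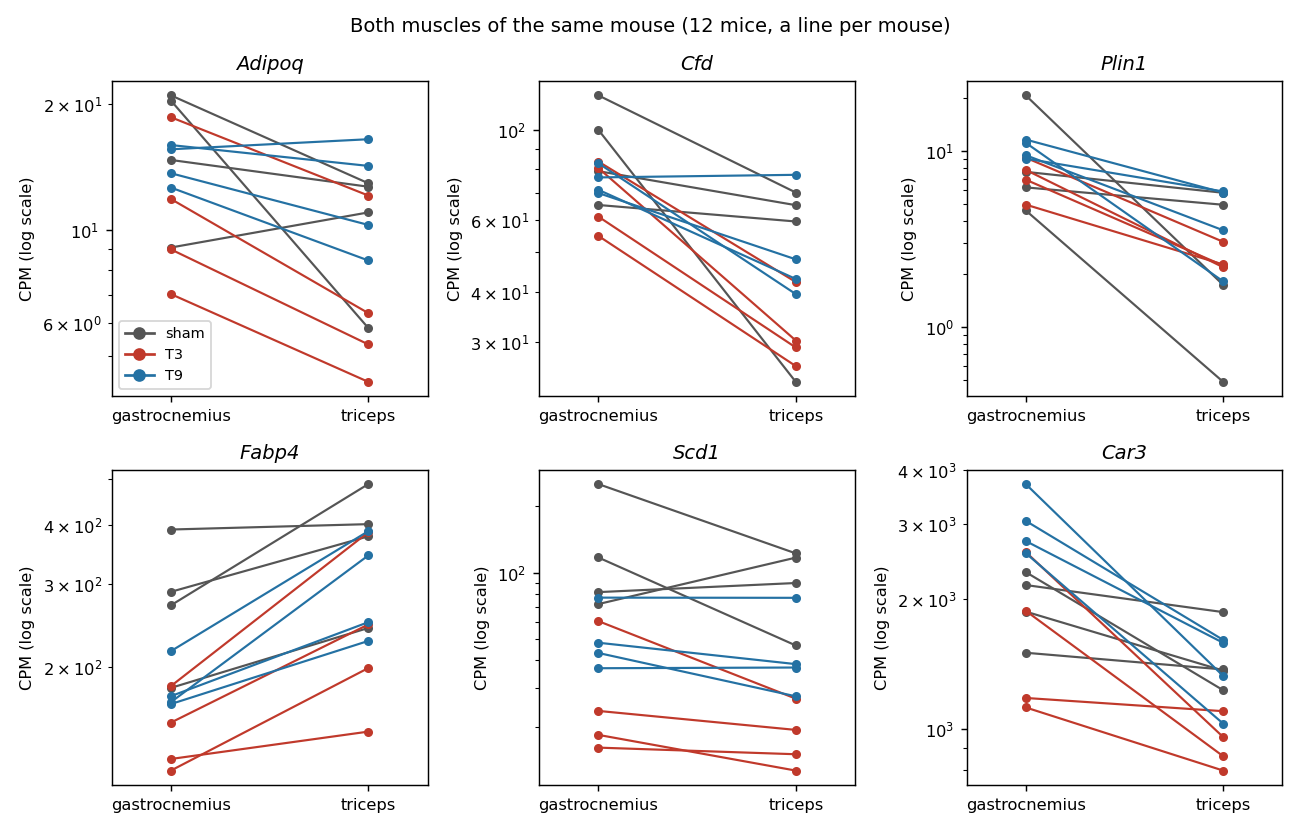
CPM on a log scale in both muscles of each of 12 mice, with a line per mouse coloured by surgery. All 12 lines fall from gastrocnemius to triceps for Plin1 and Car3 and rise for Fabp4.

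Within groups, Adipoq and Cfd moved together from library to library. Over deviations from group means, r was 0.874 and rho 0.937 in the 12 gastrocnemius libraries (permutation test, adjusted p = 0.050 and 0.010), and r was 0.747 and rho 0.748 in the 18 triceps libraries (permutation test, adjusted p = 0.050 and 0.053). Leaving out the 2 libraries farthest from the median of Adipoq gave r of 0.826 and 0.685. Cfd and Scd1 had r of 0.814 and rho of 0.843 in triceps (permutation test, adjusted p = 0.036 and 0.010), and 0.761 without the 2 farthest. Adipoq and Fabp4 had r of 0.758 and rho of 0.690 in triceps (permutation test, adjusted p = 0.050 and 0.084). Of 30 pairs tested over both muscles, 3 passed by r, all in triceps, and the triceps pairs of Adipoq with Cfd and of Adipoq with Fabp4 sat at the threshold. With the means of group and number 57 or 60 removed, 0 passed, with r of 0.789 for Adipoq and Cfd in triceps. Leaving out 1 library gave 0 to 4 passing pairs.

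**Figure D4:**
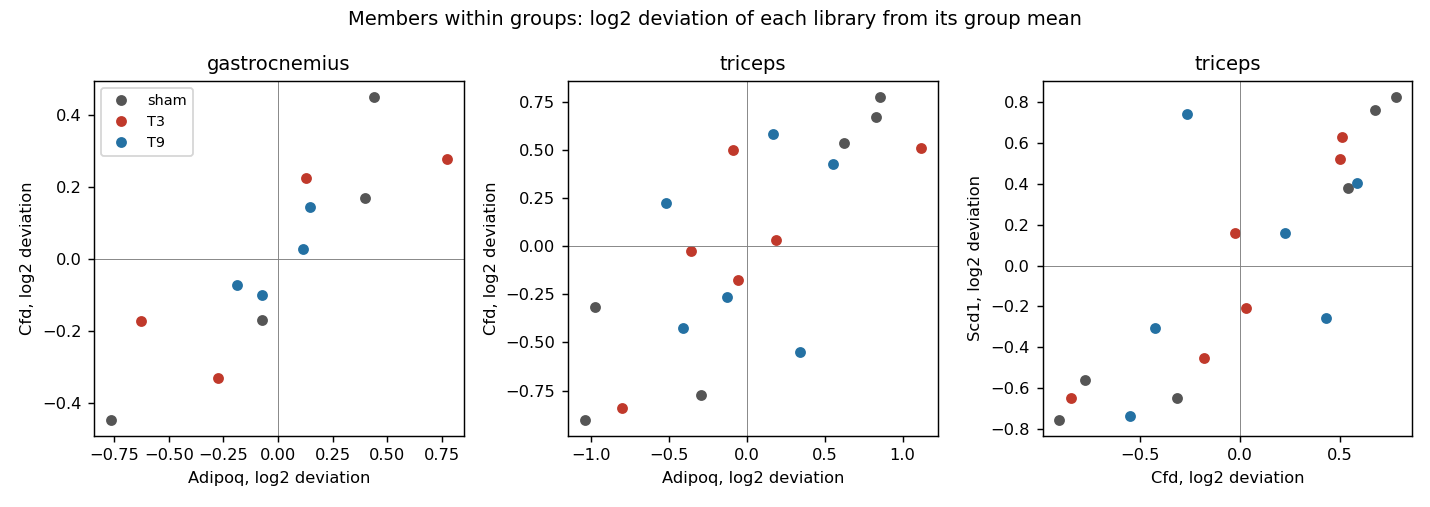
Deviation of each library from its group mean on the log2 scale for Adipoq against Cfd in both muscles and for Cfd against Scd1 in triceps, coloured by surgery. Points of all 3 groups follow the same upward direction, with r of 0.874, 0.747 and 0.814.

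Fabp4 followed the library median instead. In triceps its deviation had r of -0.882 and rho of -0.905 with the median log2 value of the library (permutation test over 18 libraries, p = 1e-05, the smallest these permutations can give for r, adjusted p = 0.00012 for r and 0.0006 for rho). Without the 2 libraries farthest from the middle r was -0.849. In gastrocnemius r was -0.410 (permutation test, adjusted p = 0.57), and 0.41 without the 2 farthest. None of the other 10 relations passed after adjustment over 12, and the next were Car3 in gastrocnemius at 0.689 and Adipoq in triceps at -0.667 (permutation test, adjusted p = 0.062 for each). The part of the library median in the Fabp4 differences between groups was not tested beyond the fit with the median as a covariate. In gastrocnemius that fit cannot separate the median from the injury, since the median largely followed the groups. These relations were added after the data had been seen.

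**Figure D5:**
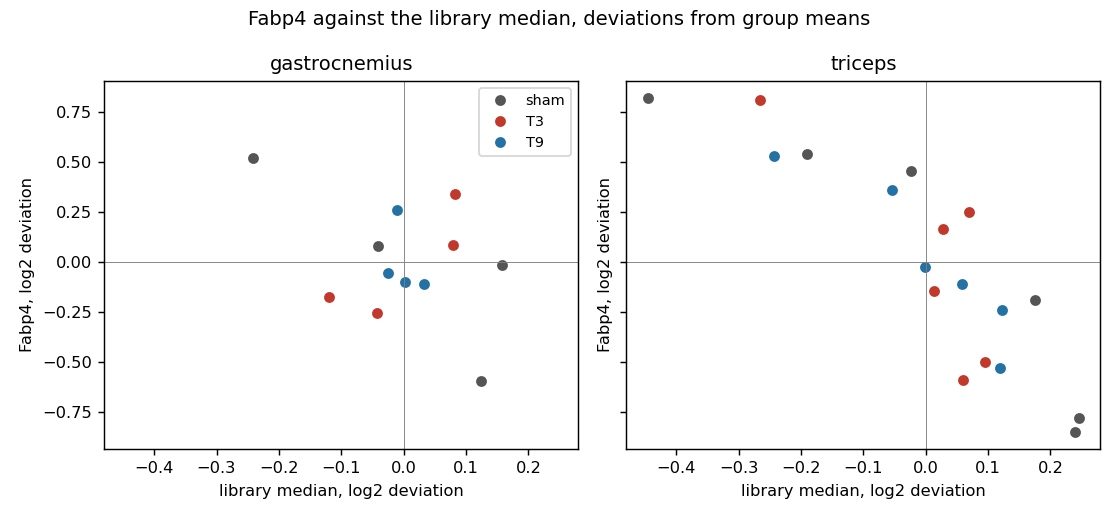
Deviation of Fabp4 against deviation of the library median, both in log2 from the group mean, in gastrocnemius and triceps. The triceps points fall along a downward line with r of -0.882, while the gastrocnemius points show no such line.

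The genes whose levels were most like each member over the 30 libraries differed from member to member. Cidec, a lipid droplet protein of fat cells, was nearest to Cfd (r = 0.94) and to Adipoq (r = 0.88), followed for Cfd by Cyp2e1 (r = 0.88). Adipoq was also close to Sncg and Prkar2b, at 0.87 and 0.84 (r for each). Plin1 was nearest to Tecr (r = 0.87), Cdh4 (r = 0.87), Gnai1 (r = 0.87) and Six2 (r = 0.85). Fabp4 was nearest to Tmem126a and Znhit1 (r = 0.94 for each) and to Mrps25 and Mrps24 (r = 0.93 for each), the last pair being proteins of the mitochondrial ribosome. Scd1 was nearest to Slc25a1, the mitochondrial citrate carrier (r = 0.85), and Car3 to Ppp1r14c, Calm3, Pla2g7 and Prkag3 (r of 0.88 to 0.89). The r values span groups and muscles that share libraries, and are descriptions only.

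Among 16 other adipocyte markers, 9 were in the table and none of them was at 0 in a group. After T3 in gastrocnemius 2 of the 9 rose and 0 fell, beside 27.1% of all genes higher and 6.65% lower, and the list median of 0.20 lay below the 0.27 of all genes. Cebpa, a transcription factor of fat cells, rose by 1.15 ± 0.24 and Nnat by 1.47 ± 0.53. After T9, 2 rose and 2 fell, beside 37.6% of all genes higher and 5.67% lower, with a median of -0.05 beside 0.40, among them Nnat at 2.69 and Adig at -1.11. In triceps after T3, 1 rose and 1 fell, beside 23.3% of all genes called and 4.32% lower: Plin4 at 1.08 and Thrsp at -0.74. After T9 in triceps 0 of 9 passed in limma and 3 had an unadjusted p below 0.05, all higher. Between T3 and T9 in triceps 0 of 9 passed, and 5 were lower and 1 higher at an unadjusted p below 0.05. How these unadjusted counts compare with all genes was not computed. The summed level of the 9 in gastrocnemius was 298 to 610.2 CPM in sham, 579 to 640.3 CPM after T3 and 355 to 478 CPM after T9. In triceps it was 148 to 498 CPM in sham, 276 to 983 CPM after T3 and 189 to 518 CPM after T9.

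Genes of fat storage and lipolysis were all in the table. Beside the list counts that follow, 27.1% of all genes were higher and 6.65% lower after T3 in gastrocnemius, and 37.6% and 5.67% after T9. In triceps after T3, 2138 of 11249 genes were higher and 4.32% lower. In triceps after T3, 7 of 20 rose and 1 fell, with a list median of 0.46 beside 0.23 over all genes: Dgat2, which makes triglyceride, rose by 1.84 ± 0.18, Pnpla2, which starts its breakdown, by 1.996 ± 0.31, and Cd36, a fatty acid carrier, by 1.25 ± 0.17. In gastrocnemius after T3, 4 rose and 4 fell, with a median of 0.06 beside 0.27, and with Pnpla2 at 1.91 and Plin2 at 1.92 higher and Lpl, the lipase of capillary walls, at -1.19. After T9, 1 rose and 7 fell, with a median of -0.15 beside 0.40, led by Lpl at -1.71 and Plin5 at -1.64. The effect of T9 on Lpl differed between the muscles by -1.78 ± 0.20 (limma, adjusted p = 0.00039).

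Scd1 shares known regulators with the genes of fatty acid synthesis, of which 17 of 20 were in the table. After T3 in gastrocnemius 5 rose and 0 fell, a share near that of all genes, and the list median of 0.31 was near the 0.27 of all genes. The first of these were Acss2 at 1.69 ± 0.28 and Abca1 at 1.11 ± 0.22. In triceps 4 rose, Acss2 again at 1.70 ± 0.26, and 3 fell, among them Me1 at -0.47. In gastrocnemius after T9, 4 rose and 0 fell, with a median of 0.33 beside 0.40.

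Other lists hold the partners and relatives of the members, and their counts stand beside the shares of all genes given with the fat storage genes. Of 10 genes of adiponectin receptors and signalling, 3 rose and 1 fell after T3 in gastrocnemius, and 5 rose and 2 fell after T9, the latter Ppargc1a at -1.25 and Ppara at -1.03. In triceps after T3, 4 rose, with Ppargc1a at 2.27 and Ppara at 1.75. Of 6 complement genes in the table, Cd55 alone fell after T3, by 0.70 in gastrocnemius and by 0.80 in triceps. Of the 2 other fatty acid binding proteins, Fabp5 was at -0.63 (limma, adjusted p = 0.026) after T3 and Fabp3 at -2.09 (limma, adjusted p = 0.00026) after T9 in gastrocnemius, while Fabp3 was at 2.01 (limma, adjusted p = 0.00013) after T3 in triceps. Of 5 other carbonic anhydrases, Car4 rose after T3 and T9 in gastrocnemius, at 1.28 and 1.03. Car8 fell by 1.39 after T3 and Car2 by 0.59 after T9 there, and Car14 rose by 0.77 after T3 in triceps.

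Markers of other cells moved beside these results, and their part in them was not tested. Of all genes, 27.1% were higher and 6.65% lower after T3 in gastrocnemius, and 37.6% and 5.67% after T9. In triceps after T3, 2138 of 11249 genes were higher and 4.32% lower. Car3 is known to be abundant in slow fibres. Of 11 slow-fibre genes, 3 fell after T3 and 4 fell after T9 in gastrocnemius, and 1 rose after T3 in triceps, where Car3 fell. Of 14 endothelial markers, 1 rose after each injury in gastrocnemius, where Fabp4 fell, a smaller share than among all genes. The summed level of the 14 was 149 to 437 CPM in sham, 378 to 446 CPM after T3 and 388 to 460.4 CPM after T9. Of 9 macrophage markers 1 rose after T3, Cd68 at 3.01, and 4 rose after T9 in gastrocnemius. Of 10 fibroblast markers 3 fell after T3 in each muscle, Col3a1 at -1.49 in gastrocnemius and -1.95 in triceps. Of 8 muscle fibre markers, 1 rose and 2 fell after T3 in gastrocnemius. Of 5 red cell markers 0 passed against sham in limma, and at an unadjusted p below 0.05 there were 3, all higher after T9 in triceps.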

How the data were processed

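The authors deposited a table of log2 values for 11249 genes and 30 libraries, and per the submitters' processing notes HISAT2 2.1.0, GRCm38, featureCounts, Subread 1.5.1 and limma were used to make it. Of the annotation release and of any filter on weakly expressed genes the notes say nothing. What was deposited is log2 CPM, made after adding 0.5 to each count, and whole reads came back for 100% of the values within 0.01 reads. CPM and RPKM come from those reads. Of the gene IDs, 11240 matched a symbol. Libraries were stranded and made from polyadenylated RNA, per the labels' protocols.

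limma 3.58.1 (R 4.3.3) was fitted with empirical Bayes and a variance trend to genes whose log2 level reached 0 in 4 or more libraries, per muscle, with a term for the number 57 or 60 in triceps, and for both muscles to 24 libraries with the mouse as a block. Correlations used 100000 permutations within groups. The limma fits of T3 against sham in each muscle and of gastrocnemius against triceps in sham were tested on simulated data. The other steps were not. Alternatives were other scalings, filters, pseudocounts, weights, covariates, blocks and subsets of libraries. The libraries of 57 alone, the relation to the library median and the transcript length were chosen after seeing the data. The members and lists were chosen with earlier results of these data known. Named list genes are among the 4 with the smallest adjusted p of a list in a comparison, and the genes most like a member are the 4 with the highest r. Chi-square per degree of freedom between replicates was 9.78 to 621, so no pair was one library. Mouse numbers were used as pairs by a reading of the sample descriptions, and that the muscles share a mouse is an inference. Of the 12 pairs, 11 gave r above 0.1, with -0.75 for 1 sham mouse. Unmatched libraries were not compared, so these values cannot show that the numbers pair libraries.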

Additional observations from a re-analysis of the deposited data

Results flagged for a closer look

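Fabp4 in gastrocnemius after T9 injury had 1 library far above its group: replicate 1 was at 216.1 CPM, while the other 3 lay between 167 and 174 CPM. Chance flags about 1 in 20 groups, and 36 groups of 4 or 6 libraries were checked.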

How the results depend on the processing

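Scd1 after T3 was lower under every alternative run in both muscles, and in triceps it missed the threshold in the 57 libraries alone. Members called moved as follows. Library weights gave 4 after T3 and 1 between the injuries in gastrocnemius, and 1 after T9 and 5 between the injuries in triceps. Without the 4 libraries with the lowest median, 0 were called after T9 and 1 between the injuries in gastrocnemius, and 3 after T3 and 5 between the injuries in triceps. With only the 2 groups in the fit, Car3 replaced Fabp4 among the 2 called after T9 in gastrocnemius, and 1 was called between the injuries in gastrocnemius and 5 in triceps. The library median as a covariate left 1 after T9 in gastrocnemius. The libraries of 60 alone gave 1 after T3 and 0 between the injuries in triceps, and those of 57 alone 1 after T3. With voom weights on the recovered reads the members called numbered 2, 2 and 0 in gastrocnemius and 2, 0 and 3 in triceps, and genes called 3870, 4991 and 185 in gastrocnemius and 2551, 0 and 934 in triceps, each for T3, T9 and T3 against T9. Correlated pairs numbered 5 with median centring, 7 without the 4 libraries and 0 with group and label number removed. The cause of these changes was not tested.

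Leaving out 1 library or mouse gave 2 to 4 called members after T3, 0 to 3 after T9 and 0 to 1 between the injuries in gastrocnemius, and 2, 0 and 2 to 3 in triceps. It gave 0 for both effects by muscle, 0 to 3 between muscles in sham, 1 to 5 after T3 and 2 to 4 after T9, and 0 to 4 correlated pairs.

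No called change reversed. Of the uncalled ones in gastrocnemius, after T9 Adipoq was at 0.22 with the library median as a covariate and 0.0303 without the 4 libraries. Plin1, at 0.33 with all libraries and called at 0.77 without sham replicate 3, was there at -0.11 with quantile normalization, -0.0738 with centring, -0.48 with library weights and -1.02 with the median as a covariate, and Car3 at -0.27 with the last. Cfd between the injuries was at 0.0035 with centring. In triceps after T3, Adipoq was at 0.0254 and Fabp4 at 0.22 with the median as a covariate, both at 0.20 and 0.36 in the 57 libraries, and Plin1 at 0.12 in the 60 libraries. After T9, Fabp4 was at 0.21 with weights, 0.36 with the median as a covariate, 0.15 without the 4 libraries and 0.50 in the 57 libraries, where Scd1 was at 0.40, and Cfd was at -0.0126 in the 60 libraries. Between muscles after T9, Adipoq was at -0.18 and -0.15 and Scd1 at -0.12 and -0.17 with quantile normalization and centring. Leaving out 1 library or mouse took Plin1 after T3 from -0.50 to 0.23 in gastrocnemius and from -0.54 to 0.19 in triceps, Adipoq after T9 in gastrocnemius from -0.36 to 0.0441, and Fabp4 and Car3 after T9 in triceps from -0.14 to 0.0869 and from -0.16 to 0.0584. The T3 effect by muscle ranged from -0.16 to 0.53 for Adipoq, -0.86 to 0.22 for Plin1 (0.11 without the sham mouse of replicate 4) and -0.22 to 0.45 for Scd1 (-0.0334 without the sham mouse of replicate 2 and -0.0749 without the T3 mouse of triceps replicate 4), and the T9 effect from -0.64 to 0.0581 for Adipoq, -0.47 to 0.18 for Cfd, -0.99 to 0.0943 for Plin1 and -0.50 to 0.17 for Scd1 (0.079 without the sham mouse of replicate 3).

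Replicate numbers were not used as pairs: 3 of 12 gastrocnemius pairs and 10 of 18 triceps pairs had r above 0.1. That cut was not set against unmatched libraries. With the replicate block, Adipoq between the injuries in triceps had an adjusted p of 0.080 in limma and the genes called between the injuries in gastrocnemius went from 183 to 70. Without the mouse block and with all 30 libraries in the fit, 0 members and 72 genes, against 4374, were called between muscles in sham. In that fit the T3 effect by muscle was -0.14 for Adipoq and -0.18 for Scd1. With the mouse as a random effect in the 24 libraries, 4728 genes were called between muscles in sham.

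Genes called after T3 in gastrocnemius numbered 3794, against 2079 with the median as a covariate and 2357 with 2 groups in the fit. After T9 they numbered 4864, against 2719 with quantile normalization, 2644 with centring and 1388 with the median as a covariate. Between the injuries 183 became 1403 with weights, 423 with the median, 563 without the 4 libraries and 1059 with 2 groups. In triceps 2624 after T3 became 1247 in the 60 and 684 in the 57 libraries, 1 after T9 became 230 with weights and 15 with the median, and 855 between the injuries became 2300, 2212, 50 and 314 with weights, the median, the 60 and the 57 libraries. The T3 effect by muscle went from 140 to 316 with quantile normalization, 248 with centring and 212 with the mouse as a random effect. The share of calls that were higher went with centring from 80.3% to 50.2% after T3 and from 86.9% to 47.2% after T9 in gastrocnemius, from 81.5% to 56.0% after T3 in triceps, and from 69.0%, 67.3% and 79.1% to 46.8%, 49.8% and 47.2% between muscles in sham, after T3 and after T9. With the union of exons as length, 16 mean RPKM values of a member in a group moved by their SD or more, and 20 did not. The rank of Fabp4 changed, as given above. In gastrocnemius sham the mean of Car3 went from 1168 to 685 RPKM and that of Plin1 from 3.48 to 2.11 RPKM. Plin1 rests on 6 to 445 reads per library, so its low triceps levels carry the most counting error.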
